A study of Drosophila melanogaster with 2 samples.

Results

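Small nucleolar RNAs (snoRNAs) guide the chemical modification of other RNAs. Box C/D snoRNAs direct 2′-O-methylation of ribose, carried out by fibrillarin, and box H/ACA snoRNAs direct the conversion of uridine to pseudouridine, carried out by dyskerin. Their targets are mostly ribosomal RNA, and the related scaRNAs of the Cajal body guide modification of spliceosomal RNAs. In animals most snoRNAs are not transcribed from promoters of their own but are trimmed out of the introns of a host gene, which can encode a protein or be a non-coding RNA kept for its introns. A few, such as U3, which acts in the cleavage of the ribosomal RNA precursor, are transcribed as independent genes.

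Accessible chromatin was examined at all 269 genes that RefSeq classes as snoRNA, out of 17807 annotated genes on the 7 chromosomes, and at the 101 genes that enclose them. The cells were Drosophila S2, a cultured line that came from embryos and resembles hemocytes, the blood cells of the fly, and the study asked how the histone mutant H3 K27M and the protein EZHIP inhibit PRC2, the Polycomb complex that methylates histone H3. The labels give no treatment or allele for these cells. There was 1 group of 2 ATAC-seq libraries, each from 2000000 cells and 12 cycles of PCR, and 1 list of peaks served both. ATAC-seq marks open DNA by where the Tn5 transposase inserts adapters. No value per library could be had from the list, so no peak had a replicate error and no test between samples was possible. Shares below carry exact (Clopper-Pearson) 95% binomial intervals. These cover counting error only, and because snoRNA genes in 1 host share its chromatin they are too narrow for the snoRNA genes.

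The list held 35535 summits, and the pileup at each could be worked out from the deposited values for all of them. Pileup is taken here as the number of fragments that overlap the summit. Whether fragments or single reads were counted is not given in the sources used here. The median pileup was 56. The median fold enrichment, as the authors deposited it, was 3.61. The total depth of the libraries is unknown. Of 8 hemocyte marker genes, 8 had a peak at an end, with pileups that ran from 32 at NimC1 to 682 at zfh1, against 1 of 6 photoreceptor genes (norpA) and 2 of 5 gut protease genes. Over all protein-coding genes the share was 60.4%. A gene is called open here when a peak interval came within 250 bp of it, for a snoRNA gene, or within 250 bp of either annotated end, for a host. Strand, exons and introns were not used here, so the start and the finish of a host were not told apart. The host is the smallest other gene that encloses the snoRNA gene, and 18 snoRNA genes lay in more than 1 gene. A peak at a host end can also belong to a neighbouring gene. Its summit can lie outside the 250 bp window, also inside the host, because only the interval had to reach the window.

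Hosts were open at their ends, while the snoRNA genes inside them mostly were not. Of the 269 snoRNA genes, 51 (19.0%, 14.5 to 24.2%) had a peak within 250 bp, where 59.6% of all annotated genes did, a share in which most genes are far longer than a snoRNA gene (median 134 bp). Tiles of 634 bp, the length of a median snoRNA gene with 250 bp on either side, held a peak in 13.7% of cases over the 7 chromosomes. Of the 101 hosts, 92 (91.1%, 83.8 to 95.8%) had a peak at an end, where 60.4% of all protein-coding and 27.1% of all lncRNA genes did. A peak interval lay on the snoRNA gene itself in 23 of 269 cases (8.55%, 5.50 to 12.6%). The window decided much of the first share, which was 13.4% with 100 bp and 56.1% with 1000 bp.

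The snoRNA genes fell into 3 places with different shares. All 12 snoRNA genes outside any other gene were open (100%, 73.5 to 100%). Of the 59 within 500 bp of an end of a gene that encloses them, 20 were open (33.9%, 22.1 to 47.4%). Of the 198 farther from both ends, where the window around the snoRNA gene cannot meet the window at the end, 19 were open (9.60%, 5.88 to 14.6%). A peak interval can still reach both windows. These 198 genes lay in 79 hosts, of which 17 had such an open snoRNA gene.

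**Figure D1:**
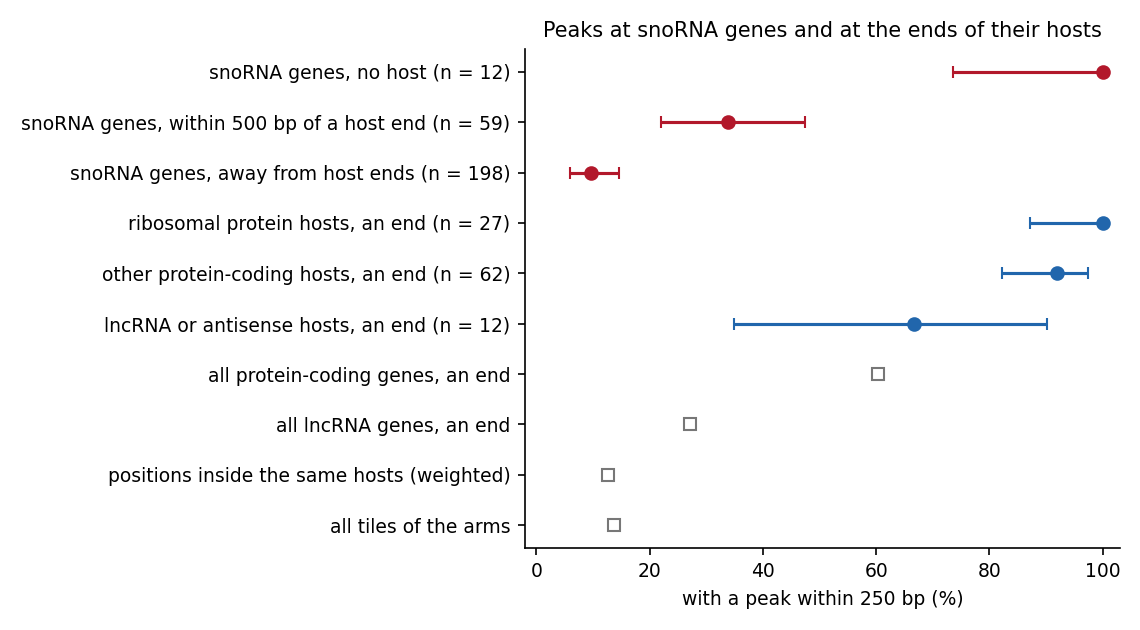
Share of snoRNA genes (red) and of host genes at an end (blue) with a peak within 250 bp, in percent, with exact 95% binomial intervals; open grey squares are shares over all genes, positions or tiles. The 198 snoRNA genes away from host ends sit at 9.60%, near the positions inside the same hosts at 12.6%, while 91.9% to 100% of protein-coding hosts were open at an end.

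Away from the ends, snoRNA genes were open about as often as the rest of their hosts. When each position inside the 79 hosts was scored as a snoRNA gene of median length would be, a peak was in reach of 18.6% of positions counted by bp. Weighted by the number of snoRNA genes in each host, the share was 12.6%, which corresponds to 25.0 of 198 genes against the 19 observed, and it lies within the interval of the observed share. In 25 of the 79 hosts no inside position was within reach of a peak. Around the middle of these snoRNA genes, peak intervals covered 3.99% of genes on average within 100 bp, and 11.1% at 1000 to 3000 bp. The second value takes in host ends, which the choice of genes over 500 bp from an end keeps out of the first. The median distance from such a snoRNA gene to the nearest summit was 1154.5 bp (quartiles 787.75 and 1689.5 bp), against 82.5 bp for the 12 without a host.

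**Figure D2:**
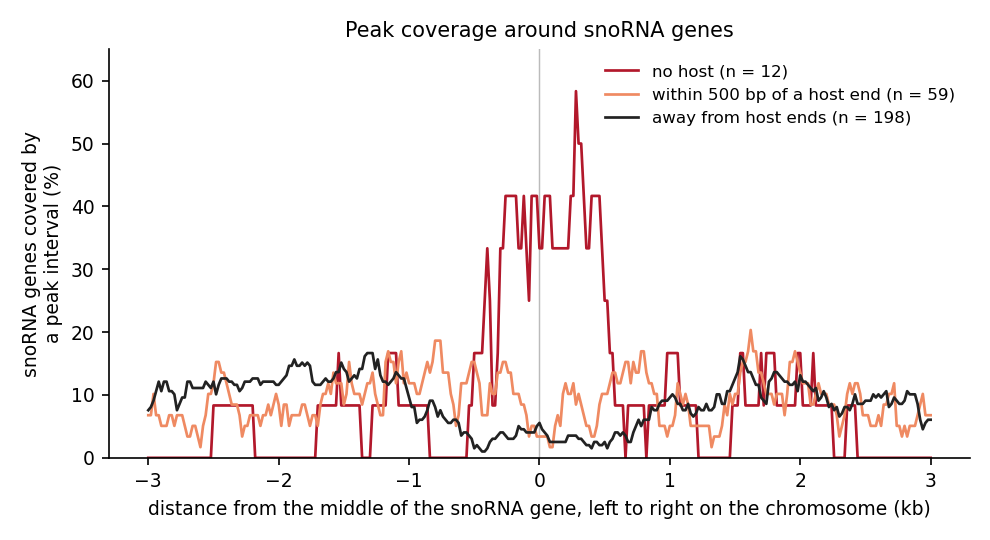
Share of snoRNA genes covered by a peak interval (%) at each distance from the middle of the gene (kb, left to right on the chromosome, since strand was not used). At the middle of the gene 33.3% of the 12 genes without a host were covered, and 5.56% of the 198 away from host ends.

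The hosts with the most snoRNA genes showed the split most plainly, but in several of them almost no inside position was in reach of a peak. Scored as above, that share was 27.3% in kra, 14.9% in Arpc2, 13.8% in Uhg5, 11.5% in Hrb98DE and 11.1% in dom. It was 0.65% in RpS5a and 0% in Uhg1, Nop60B and RpS7. At 0%, a snoRNA gene of median length away from the ends could not be open. Arpc2, which encodes a subunit of the actin-nucleating Arp2/3 complex, holds 17 H/ACA genes by name, 10 of the Psi18S-525 family and 7 of the Psi18S-640 family, between 2L 20417057 and 20423027. The highest peak that reached its left end had a pileup of 328 (95% Poisson interval 293 to 365), with its summit 394 bp inside the gene. The summit 21 bp from that end had 120. The right end had 29 (19.4 to 41.6), and 0 of the 17 snoRNA genes were open. The nearest summit to any of them was 512 bp away. The non-coding host Uhg1 (2R 17699097 to 17703344) holds 16, among them the U27, U29, U31 and U76 genes, named after the classical nucleolar RNAs of vertebrates. Its left end had a pileup of 89 (71.5 to 110), and 1 of the 16 was open, Me28S-G3081a, which lies 111 bp from that end and shares its peak. The other 15 lay 522 bp or more from any summit.

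The chromatin remodelling ATPase gene dom (2R 21323430 to 21341847) holds 15 snoRNA genes, 0 of them open. Its left end had a pileup of 171 (146 to 199), and 4 summits lay farther inside. RpS5a, for a protein of the small ribosomal subunit, holds 14 on X between 17143588 and 17148264. Its right end had a pileup of 111 (91.3 to 134), its left end had no peak, and 0 of the 14 were open. In kra, which encodes a translation regulator related to eIF5, 0 of 8 snoRNA genes were open although 5 summits lay inside, the highest with a pileup of 247 (217 to 280), whose interval also reached the right end. Those summits were in the right part of the gene and the snoRNA genes to their left, with 937 bp or more between a snoRNA gene and any summit.

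**Figure D3:**
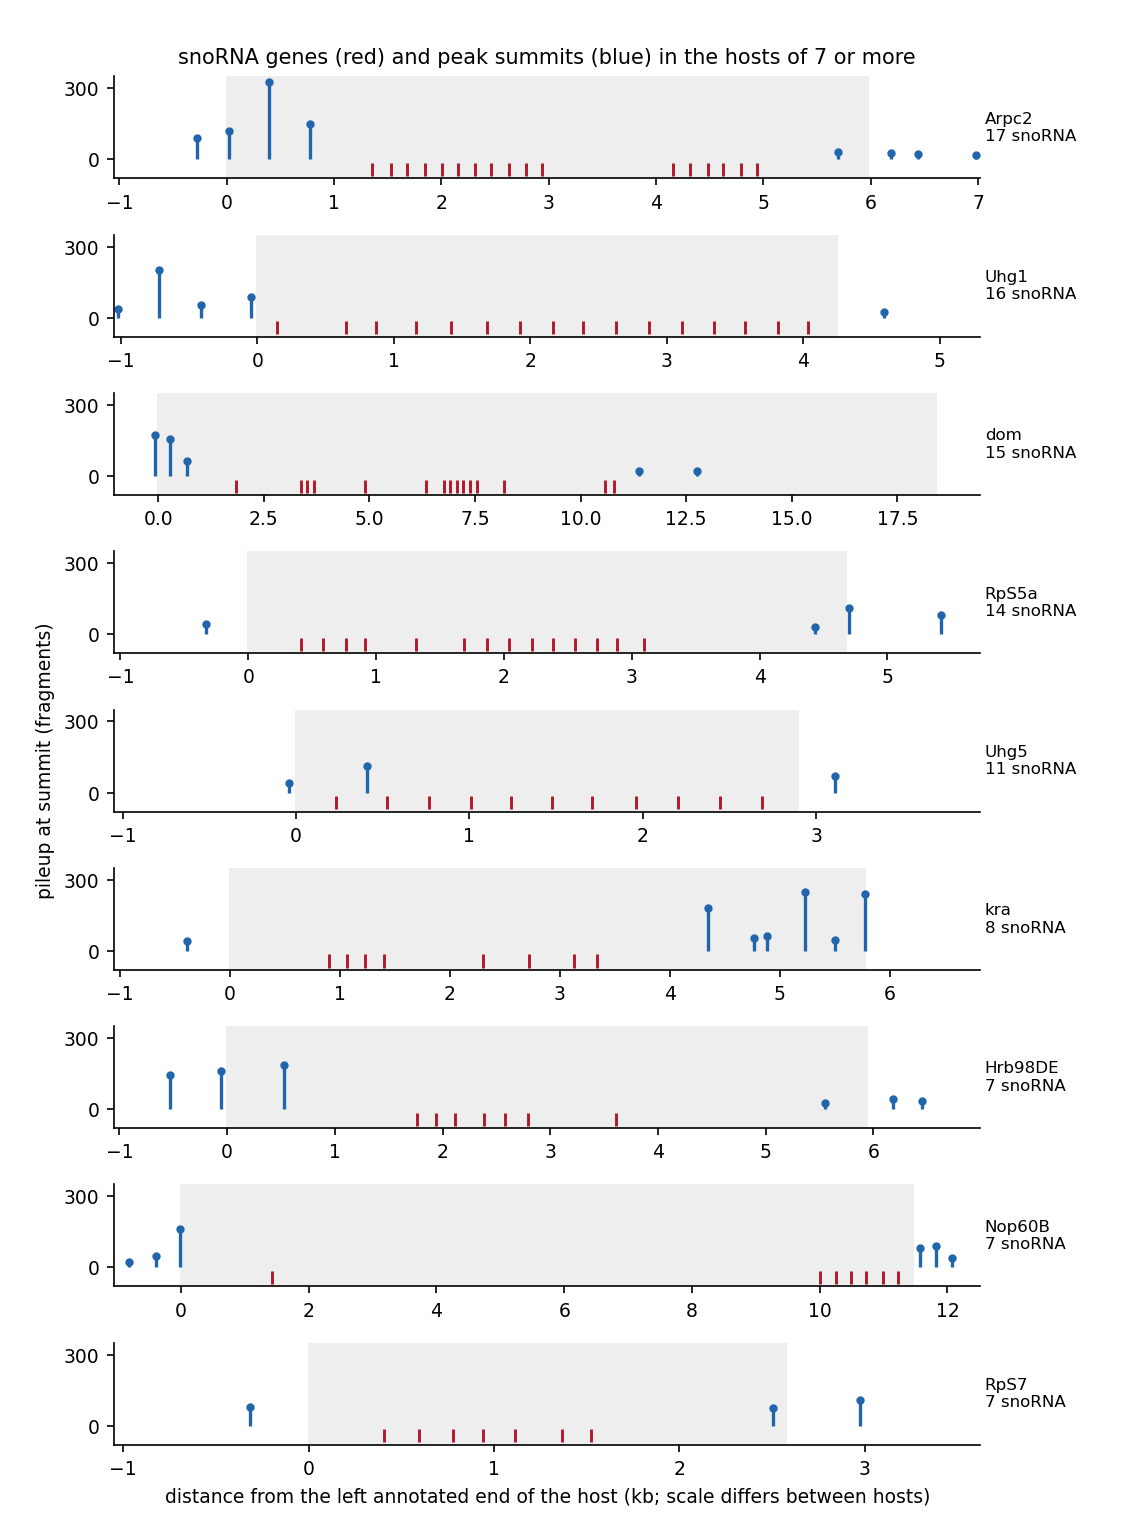
snoRNA genes (red ticks) and peak summits (blue stems, height is the pileup in fragments) along the 9 hosts of 7 or more snoRNA genes, by distance from the left annotated end (kb, grey span is the host). In these 9 hosts 96 of the 102 snoRNA genes had no peak within 250 bp, and stems stand mostly near or beyond the ends.

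Other hosts of 4 or more genes were similar, and Uhg5 and egr stood apart. Of the 20 such hosts 19 were open at an end, with a median pileup of 161, and 13 of their 152 snoRNA genes were open (8.55%, 4.63 to 14.2%). The 12 hosts in which none was open, a group set apart by that outcome, hold 95 snoRNA genes. Besides those described, these were Hrb98DE, an hnRNP gene (pileup 161 at the left end and 45 at the right), RpS7 (76), RpS16 (196 and 137), RpL17 (104 and 68), CG10576 (210), lncRNA:CR45184 (53, at a left end shared with Sf3b3), lola and Uhg7. The 196 at RpS16 was at a summit over 250 bp inside the gene, whose interval reached the window at the left end. The transcription factor gene lola is 61398 bp long and had 34 summits inside, the highest at 833, and 586 at its right end. Its 4 snoRNA genes lay 1318 bp or more from each of these. The share of inside positions in reach of a peak was 24.7% in lola, 16.4% in RpS16 and 0.19% in CG10576. It was 0% in RpL17 and lncRNA:CR45184. In Nop60B, Uhg4, RpL28, Uhg2 and the splicing factor gene Sf3b3, 1 snoRNA gene each was open out of 7, 6, 5, 4 and 4, each within 500 bp of a host end.

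Uhg5 (2R 14621601 to 14624498) had 4 of 11 open. A single summit with a pileup of 114 (94.0 to 137) inside the gene reached Me18S-C1366, Me28S-C3227a and Me28S-C3227b, and the peak at the right end, with a pileup of 71 (55.5 to 89.6), reached Or-CD4. In egr, which encodes the fly TNF ligand, 3 of 4 snoRNA genes were open, from inside summits with pileups of 84 (67.0 to 104) and 85 (67.9 to 105). The end of egr stood higher, at 294 (261 to 330). These 3 were the H/ACA genes Or-ACA6 and Or-ACA7 and the scaRNA gene MeU1b-A234, named for a methylated position of U1. Of the positions inside egr, 31.4% were in reach of a peak.

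Open snoRNA genes away from host ends were mostly single genes of their host. Of the 47 that were the only snoRNA gene of their host 13 were open (27.7%, 15.6 to 42.6%), of 29 in hosts of 2 or 3 there were 2 (6.90%, 0.846 to 22.8%), and of 122 in hosts of 4 or more there were 4 (3.28%, 0.900 to 8.18%). The same genes differ in copies: 2 of 108 whose name is shared by lettered copies were open (1.85%, 0.225 to 6.53%), against 17 of 90 with a name of their own (18.9%, 11.4 to 28.5%). Near-identical copies can lose reads that fit several places, and how such reads were treated is not given in the sources used here, so their part in this difference was not tested. Host length moved with it too, with a median of 5845 bp for the 19 open genes and 4677 bp for the 179 others. No summit lay beyond 250 bp from the ends in 28 of 63 hosts of 1, 10 of 18 hosts of 2 or 3, and 11 of 20 hosts of 4 or more. The share of inside positions in reach of a peak was 12.6% over all 79 hosts, weighted by snoRNA genes, and was not taken for each of these groups. Whether the counts by group reflect the hosts or their snoRNA genes was therefore not tested. Counted by locus, with genes within 500 bp of each other as 1, the share away from ends was 17 of 99 (17.2%).

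By the class in the name, the shares overlapped. Away from host ends 6 of 67 box C/D genes (8.96%, 3.36 to 18.5%), 5 of 94 box H/ACA genes (5.32%, 1.75 to 12.0%), 3 of 14 scaRNA genes (21.4%, 4.66 to 50.8%) and 5 of 23 whose name gives no class (21.7%, 7.46 to 43.7%) were open. Over all places, 14 of 113 genes named for a 28S target and 13 of 67 named for an 18S target were open (12.4%, 6.94 to 19.9%, and 19.4%, 10.8 to 30.9%). The intervals overlap in each of these comparisons.

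The strongest peaks at snoRNA genes away from host ends were within the range of those at open host ends. At Psi28S-2622, an H/ACA gene in the rhomboid protease gene stet, the pileup was 230 (201 to 262), with a fold of 17.1, against 54 (40.6 to 70.5) at the stronger end of stet. The summit, at 3L 1488777, was 129 bp from the snoRNA gene, and another small RNA gene, sncRNA:CR43701, lay 75 bp from it. At hts-a, in the adducin gene hts, the pileup was 312 (278 to 349), against 102 (83.2 to 124) at the stronger end of hts. A tRNA gene, tRNA:Ser-CGA-1-4, lay 108 bp from hts-a, and tRNA genes over 500 bp from the ends of the genes that enclose them were open in 107 of 126 cases when scored alike. Whether the peak belongs to hts-a or to the tRNA gene was not tested.

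Dek-a had a pileup of 303 (270 to 339), against 284 (252 to 319) at an end of its host Dek, a chromatin protein gene, so the intervals overlap. The summit of that 284 also lay over 250 bp inside Dek. CG31191-a had 283 (251 to 318), against 88 (70.6 to 108) at an end of CG31191, and an antisense gene, asRNA:CR44106, has an end on it. Me18S-C1968 in Swim had 260 (229 to 294), and Swim had no peak at either end. At stet, hts and CG31191 too, the peak at the snoRNA gene was higher than at either end of the host. A further 4 of the 10 with the highest fold were Me28S-A1322 in the translation elongation factor gene eEF1alpha1 (182, against 165 at the host end), gcl-a in gcl (144, against 102), Me28S-C3227b in Uhg5 (114, against 71) and Psi28S-2566 in CG3902 (116, against 225). A peak that counted for the end of gcl also reached gcl-a, and the summit of that 102 lay over 250 bp inside gcl. At Uhg5 the summit lay 318 bp from Me28S-C3227b, and only its interval reached the window. The tenth, MeU1b-A234, is the scaRNA gene in egr.

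Among the 18 pairs with a peak at a host end too, the fold was higher at the snoRNA gene in 9 and at the host end in 9. By pileup, the snoRNA gene stood above the host end without overlap of the Poisson intervals in 4 pairs, below it in 9, and the intervals overlapped in 5. The median fold was 4.41 at the 19 snoRNA genes, against 8.41 at the 92 open hosts, and the median pileup 114, against 124.5. That order of medians does not hold in general: with a window of 100 bp the medians were 8.48 and 7.24, and with peaks under the median fold of the list left out they were 8.68 and 8.54. The limit for a gene away from the ends moves with the window, so the first of these took in 236 genes, 17 of them open. The summits were taken at their strongest within each window, and a host has 2 windows, so the host had more chances of a high value.

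**Figure D4:**
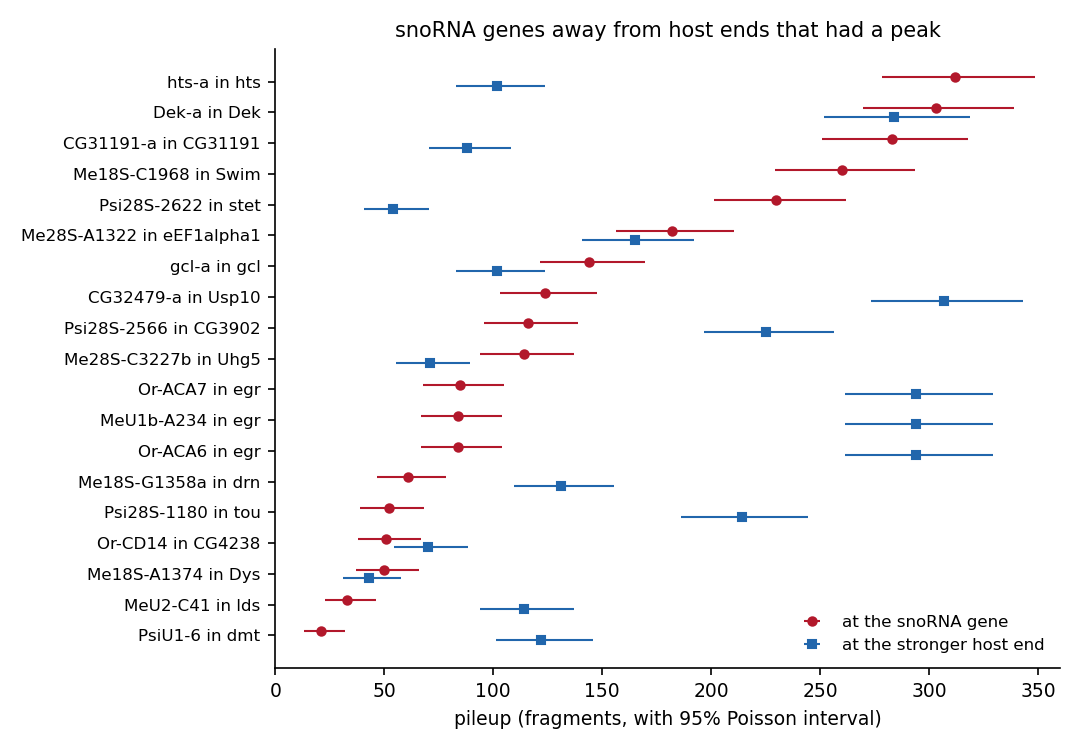
Pileup with 95% Poisson interval (fragments) at each of the 19 open snoRNA genes away from host ends (red circles) and at the stronger end of its host (blue squares; Swim had none). The snoRNA gene lies above its host end without overlap at hts, CG31191, stet and Uhg5. At Uhg5 the summit was 318 bp from the snoRNA gene, and only its interval reached the window.

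Near host ends, most open snoRNA genes shared a peak with the end. Of the 20 open snoRNA genes within 500 bp of an end, 16 (80%, 56.3 to 94.3%) were reached by a line of the list that also counted for the host end. The windows of gene and end meet at this distance, so such sharing follows in part from the choice of genes. The shared line need not be the strongest, as at Me18S-C1366, where the strongest (114) was another. The share open was 13 of 22 (59.1%, 36.4 to 79.3%) within 250 bp of the nearer end and 7 of 37 (18.9%, 7.96 to 35.2%) from 251 to 500 bp. The highest were Or-aca4 in CG44403, with a pileup of 318 (284 to 355), and Me18S-G1358c in RpL15, with 314 (280 to 351), both the peak of the host end. A peak interval lay on the snoRNA gene itself in 3 of the 59.

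The 12 snoRNA genes without a host were open in each case, but 11 of them lay within 500 bp of the end of another gene. The strongest peak was at Psi18S-176 (2R 23839911 to 23840064), with a pileup of 368 (331 to 408) and a fold of 19.2. The nearest end, of GlyT, is 47 bp away and within reach of the same peak. Me18S-A1806 had 156 (132 to 182) and lay 17 bp from Urm1, a ubiquitin-like modifier gene, with the same sharing. In 6 of the 12 the strongest peak was also within 250 bp of the nearest gene end. Psi28S-3342 on X was the 1 over 500 bp from the end of any other gene, and had 3 summits, the highest with a pileup of 154 (131 to 180).

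Psi28S-1153, another H/ACA gene, had 33 (22.7 to 46.3), and a pair of genes beside it without a functional name shared a summit with a pileup of 173 (148 to 201). snoRNA:185 had 198 (171 to 228), near a tRNA gene 308 bp away, and Psi18S-301 had 35 (24.4 to 48.7). The 3 U3 genes were open at pileups near the median of 56 over all summits. U3:54Aa had 69 (53.7 to 87.3), U3:9B 63 (48.4 to 80.6) and U3:54Ab 53 (39.7 to 69.3), so their intervals overlap, and at each the fold was between 4.95 and 5.87. tRNA:Leu-AAG genes lay 235 and 236 bp from U3:54Aa and U3:54Ab, and the strongest peak was not within 250 bp of the nearest end of either. U3:9B lay 331 bp from an end of CG43740, and its strongest peak was within 250 bp of that end. The remaining U-numbered genes, U14, U27, U29, U31, U49 and U76, lie in the hosts Uhg1, Uhg2 and RpL14, and 0 of these 13 were open. The weakest of the 12 was MeU1:95C-A24, a scaRNA gene, with a pileup of 20 (12.2 to 30.9).

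The same places were scored for other small RNA genes. Away from the ends of an enclosing gene, 9.60% of snoRNA genes had a peak, against 12.0% of 158 miRNA genes (7.40 to 18.1%). Without an enclosing gene, 12 of 12 snoRNA genes had one, against 9 of 51 miRNA genes (17.6%, 8.40 to 30.9%). Of these 12 snoRNA genes 11 lay within 500 bp of the end of another gene, and the like count was not taken for the miRNA genes. tRNA genes were open in 84.9% of 126 cases away from the ends of an enclosing gene (77.5 to 90.7%) and in 81.9% of 155 without one (75.0 to 87.6%). snRNA genes, which like U3 have promoters of their own, were open in 6 of 14 cases away from such ends and 11 of 15 without an enclosing gene. Within 500 bp of such an end, 20 of 59 snoRNA genes were open, against 16 of 51 miRNA, 7 of 9 tRNA and 3 of 3 snRNA genes. These differences were not tested.

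Protein-coding hosts were open at an end in 84 of 89 cases (94.4%, 87.4 to 98.2%), where 60.4% of all protein-coding genes were. In hosts of 1 to 3 kb the share was 35 of 36 against 60.7% of coding genes of that length, in those of 3 to 10 kb 30 of 30 against 74.4%, and in those over 10 kb 18 of 22 against 70.7%. Both ends were open in 27 of the 101 hosts (26.7%, 18.4 to 36.5%), and 11.7% of all protein-coding genes had both. Few hosts stand alone: 25 coding hosts had an end over 1 kb from every other gene's, and 14 of them (56%, 34.9 to 75.6%) had a peak there, where 30.4% of protein-coding genes with such an end did. At the 65 hosts open at 1 end, 87 of 159 snoRNA genes lay nearer to it, with a median place of 0.468 on a scale from the open end (0) to the other (1).

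Ribosomal protein hosts were open throughout. All 27 had a peak at an end (87.2 to 100%), with a median pileup of 142 and a range of 62 to 314, against a median of 98 over all open protein-coding genes. Of 62 ribosomal protein genes by symbol that hold no snoRNA gene, 58 were open. RpL15 (3L 27267255 to 27268445) had the highest fold of any host, 26.0, with a pileup of 314 (280 to 351). Of the 47 snoRNA genes away from the ends of these hosts 0 were open (up to 7.55% allowed), and 5 of the 27 hosts had a summit inside, beyond 250 bp from the ends.

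The other protein-coding hosts were open in 57 of 62 cases (91.9%, 82.2 to 97.3%), with a median pileup of 125 and a range of 23 to 586. After Arpc2, the highest folds were 20.1 at CG44403 and 17.9 at CG42238, with pileups of 318 and 376 (339 to 416). Summits lay inside 45 of these 62, and 18 of 122 snoRNA genes away from the ends were open (14.8%, 8.98 to 22.3%). These hosts were longer, with a median of 5755.5 bp against 1792 bp for the ribosomal protein hosts.

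Non-coding hosts that were open had a median pileup of 80 and a range of 47 to 218. Of 10 lncRNA hosts 8 were open (80%, 44.4 to 97.5%), where 27.1% of all lncRNA genes were, and 0 of 2 antisense RNA hosts. The peaks of lncRNA:CR42491 (47) and lncRNA:CR45184 (53) also counted for the ends of the coding hosts RpL22 and Sf3b3. Among the Uhg genes, which make spliced RNAs that carry snoRNAs in their introns, 6 of 7 were open. The end pileups were 218 at Uhg4 (190 to 249), 126 at Uhg8, 111 at Uhg2, 89 at Uhg1, 71 at Uhg5 and 56 at Uhg3 (42.3 to 72.7). The interval of Uhg4 lies above that of each of the others, while Uhg1 and Uhg5 overlap. Of the 47 snoRNA genes in Uhg hosts 8 were open.

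**Figure D5:**
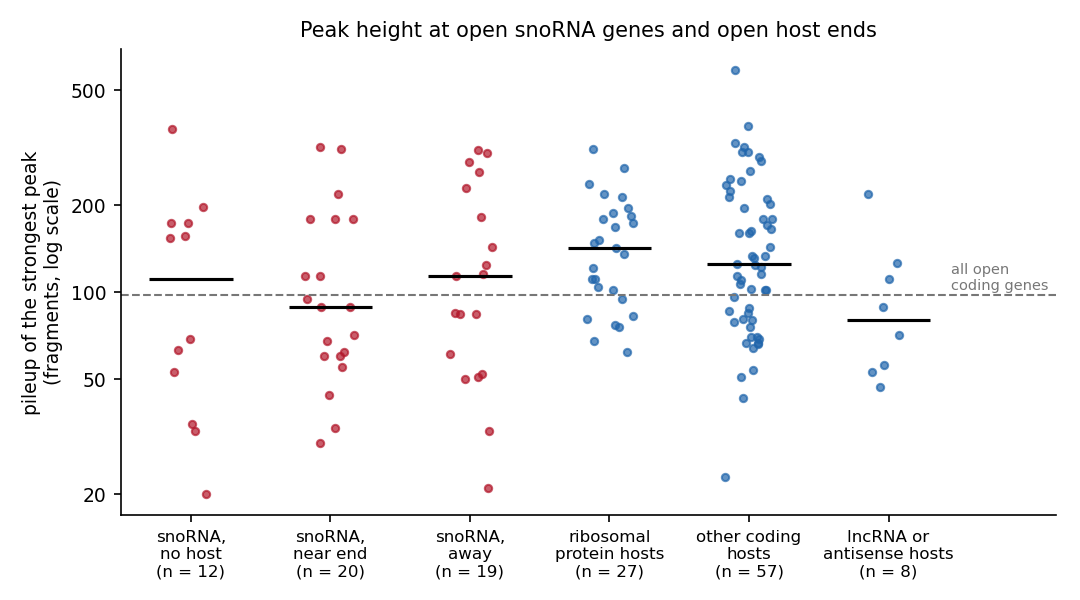
Pileup of the peak with the highest fold (fragments, log scale) at open snoRNA genes by place (red) and at open hosts by class (blue); black bars are medians and the dashed line is the median of 98 over all open protein-coding genes. Medians run from 80 for lncRNA or antisense hosts to 142 for ribosomal protein hosts, and the points of all classes overlap.

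Of the 101 hosts 9 had no peak at an end. Uhg7, asRNA:CR45874, asRNA:CR31144 and CG42564 share their snoRNA genes with a larger gene that did have one, at pileups of 249 for RpL23A (over Uhg7), 132 for RpS9, 188 for RpL3 and 36 for CRAT. The others were lncRNA:CR31647, with no summit inside, and the long genes Msp300, Rbfox1, tn and Swim. Msp300, which encodes a giant nuclear anchorage protein, and Rbfox1, a splicing factor gene, had 22 and 20 summits inside, the highest at 380 and 130. Their snoRNA genes had no peak.

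Genes for the proteins that build and release snoRNA particles were open at their ends. Of 21 listed genes 19 were matched, and 18 of these (94.7%, 74.0 to 99.9%) had a peak, where 60.4% of protein-coding genes did, with a median fold of 9.87 against 7.06 over all open coding genes. The 4 core proteins of the box C/D particle had pileups of 239 (Nop56), 216 (hoip, which binds the kink-turn), 202 (Fib, the methyltransferase fibrillarin) and 125 (nop5). The 4 of the H/ACA particle had 173 (NHP2), 161 (Nop60B, the pseudouridine synthase dyskerin), 112 (Gar1) and 83 (Nop10). Nopp140, a nucleolar chaperone of these particles, had the highest fold on the list, 20.4, with a pileup of 319 (285 to 356). Others for assembly and trafficking were rept, Tgs1, pont, Nufip and WDR79, at 130 to 86.

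For release from the intron, the lariat debranching enzyme gene ldbr had 123, the exosome genes Rrp6 and Dis3 113 and 96, and the exonuclease gene Rat1 64 (49.3 to 81.7). The gene without a peak was coil, for the Cajal body protein coilin. Fib, nop5 and Nop60B are themselves hosts, with 1, 1 and 7 snoRNA genes. In Nop60B (2R 24174877 to 24186343) the ends had pileups of 161 (137 to 188) and 89, no summit lay farther inside its 11467 bp, and Or-CD9b, 191 bp from an end, was its open snoRNA gene.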

How the data were processed

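ATAC-seq of 2 libraries of S2 cells gave 1 deposited peak list, on dm6. The submitters' processing notes name Bowtie2, MACS2 and deepTools, with no versions or settings; the sources used here do not give filters, the treatment of repeated sequence or whether reads were pooled. Per the labels, the libraries are duplicates, and nothing says that they came from separate cultures. The deposited list gives for each peak a fold enrichment (a ratio of pileup to local background), −log10 p-values and −log10 q-values, and a score, which was not used, all as the authors made them. Every line has a −log10 q of at least 1.30.

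The whole-number pileup k and the local background were solved from each deposited fold, (k + 1) over (background + 1), and its −log10 p-value, the upper tail of a Poisson distribution. All 35535 were solved, with a largest residual of 0.000521 against a tolerance of 0.001. On simulated data 3000 of 3000 pileups and 1000 of 1000 window overlaps were right. Pileup intervals are 95% Poisson intervals and shares have exact 95% intervals, both for counting error only. If the reads of a fragment were counted apart, the Poisson intervals are too narrow. Genes came from the RefSeq annotation of Release 6 plus ISO1 MT, on 7 chromosomes. A peak counted when its interval overlapped the window by at least 1 bp; where several did, the one of highest fold was used.

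No test was run, because there is 1 group and 1 list. Named genes were the hosts of 4 or more snoRNA genes, the 5 open hosts of highest fold (1 of them is not reported here), the first 5 hosts by name without an end peak (the other 4 were named after their values were seen), the 10 open snoRNA genes away from host ends with the highest fold, all 12 without a host, and the listed particle and marker genes. Further genes named, such as Uhg3, Uhg8 and Or-aca4, were picked with their values in view. The snoRNA genes, lists and comparisons were chosen with earlier results of these data known. Alternatives varied the window, peak threshold, choice of host and unit of counting. Python 3.11.15, numpy 2.4.6, pandas 2.3.3, scipy 1.17.1 and matplotlib 3.10.9 were used.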

Additional observations from a re-analysis of the deposited data

How the results depend on the processing

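The share of snoRNA genes with a peak, 19.0% with 250 bp, was 13.4% with 100 bp, 26.8% with 500 bp and 56.1% with 1000 bp. It was 33.3% with genes within 500 bp counted as 1 locus, 26.97% with a family name counted as 1 and 8.55% with the interval on the gene itself, an alternative chosen after seeing the data. Away from host ends the 9.60% became 33.8% with 1000 bp (24 of 71 genes) and 17.2% by locus. The share of open hosts, 91.1%, was 56% at isolated ends of protein-coding hosts, also chosen after seeing the data. The difference in median fold, snoRNA genes away from host ends minus open hosts, was -3.99. It was -5.72 with 1000 bp, and it turned to 1.25 with 100 bp and to 0.15 without the peaks under the median fold. With a −log10 q of at least 10 it was -0.02. A change of window also changed which genes counted as away from the ends, 236 with 100 bp and 71 with 1000 bp. The share of open particle and release genes, 94.7%, became 100% with 500 and 1000 bp, where coil gained a peak. The cause of these shifts was not tested, beyond the wider windows reaching more DNA. Under the remaining alternatives each value stayed within its 95% interval or kept its sign. No paired analysis was possible because there is 1 group, and no library could be left out because 1 list serves both. An alternative that uses gene starts alone was not run, since strand was not used here. Total depth is unknown, and peaks too weak to enter the list cannot be told from closed chromatin.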
